A study of Mus musculus with 82 samples.

Results

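The 33 genes described here encode chaperones and folding enzymes of the endoplasmic reticulum (ER), sensors of the unfolded protein response and factors of ER-associated degradation. They were chosen by name and not by a cut on their measured values, though with earlier results of these data known. All 33 were measured, out of 18193 genes with a probe set annotated to a single gene symbol. Together they had 79 of 34945 such probe sets. Each gene is represented by 1 probe set, the one with the highest mean level in the cell type. The arrays were Affymetrix mouse expression arrays, and every level is a log2 intensity, so a difference of 1 on this scale is a doubling.

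The study compared 2 activators of AMP-activated protein kinase (AMPK), the energy sensor of the cell, in C57BL/6 mouse cells that have or lack both catalytic subunits, with treatments of 4 h. The compound 991 binds AMPK directly, and AICAR is taken up and converted to an AMP mimic. Mouse embryonic fibroblasts (MEFs) of control genotype (WT) or with AMPK alpha1-/- alpha2-/- (dKO) received vehicle (DMSO), 991 at 10 µM or AICAR at 2 mM, with 4 arrays in each of the 6 groups except WT with 991, which had 3. The labels call these MEF arrays technical replicates and name no separate lines or cultures, so their p-values measure technical spread, and genotype and line cannot be told apart. Primary hepatocytes, isolated by collagenase perfusion and kept overnight in medium with dexamethasone, received vehicle, 991 at 3 µM or AICAR at 300 µM. They came from 2 preparations of each genotype, with 5 technical replicates of each preparation and treatment (4 for dKO vehicle, preparation 1). The labels do not say how the gene deletions in the hepatocytes were made.

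The ER folds secreted and membrane proteins, and its chief chaperone, BiP (Hspa5), works with J proteins, nucleotide exchange factors, lectin chaperones and protein disulfide isomerases. When unfolded proteins build up, 3 sensors respond: IRE1 (Ern1), which splices Xbp1 mRNA; ATF6 (Atf6), which is cut to release a transcription factor; and PERK (Eif2ak3), which slows translation and induces ATF4 and CHOP (Ddit3). Spliced XBP1 and cleaved ATF6 raise chaperones and the machinery that returns misfolded proteins to the cytosol for degradation. The hepatocyte secretes large amounts of plasma protein and depends on this system.

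Cleaved ATF6 and XBP1 act through short promoter elements, which are shown here because the members that varied most between hepatocyte cultures include several with such an element. The ER stress response element (ERSE) is CCAAT, then 9 bases of any kind, then CCACG. ERSE-II is ATTGG, 1 base of any kind, then CCACG, and the unfolded protein response element (UPRE) was searched as TGACGTGG. All were searched on both strands from 250 bases before to 50 bases after the start of each gene in the RefSeq promoter table (GRCm38.p6), which holds 28 of the 33 members. An ERSE was found in 9 of the 28 (32.1%) and in 37 of 27025 genes of the table (0.137%): Calr, Canx, Creld2, Derl3, Dnajc3, Hsp90b1, Hspa5, Pdia6 and Syvn1. ERSE-II was found in Dnajb11 and Herpud1 (7.1% of members, 0.044% of genes), and the UPRE in Txndc5 and Txndc11 (7.1% and 0.714%). No member held more than 1 kind of element, and the elements therefore did not overlap. None was found in Sdf2l1, Sel1l, Pdia4 or Dnajb9, which also differed widely (-1.43, -1.42, -1.41 and -1.07, dKO minus WT, vehicle, preparation 1). The ERSE genes Calr, Canx and Pdia6 differed by -0.28, -0.13 and -0.52 there. Whether an element goes with the size of a difference was not tested. A match of letters describes the promoter and shows no binding. An element with other letters, or one outside the searched stretch, would not be found, so a missing match does not show a missing element. In the stretches below, printed 5′ to 3′ on the strand of the gene and ending before its start, the capitals mark the whole ERSE or, in Herpud1, the ERSE-II; where the element lies on the opposite strand it reads CGTGG, 9 bases, ATTGG. Hsp90b1 has 1 copy at each end of its stretch.
Creld2, chr15:88819474-88819583, plus strand: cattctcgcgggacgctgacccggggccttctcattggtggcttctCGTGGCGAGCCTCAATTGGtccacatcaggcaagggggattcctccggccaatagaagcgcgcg
Derl3, chr10:75893196-75893305, plus strand: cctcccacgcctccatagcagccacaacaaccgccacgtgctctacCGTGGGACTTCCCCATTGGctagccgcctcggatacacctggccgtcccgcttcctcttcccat
Hsp90b1, chr10:86705533-86705656, minus strand: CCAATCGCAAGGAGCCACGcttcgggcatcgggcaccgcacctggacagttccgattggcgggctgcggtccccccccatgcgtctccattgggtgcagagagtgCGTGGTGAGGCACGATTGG
Dnajc3, chr14:118937781-118937890, plus strand: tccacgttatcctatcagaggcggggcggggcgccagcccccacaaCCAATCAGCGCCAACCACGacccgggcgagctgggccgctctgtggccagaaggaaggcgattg
Syvn1, chr19:6046466-6046575, plus strand: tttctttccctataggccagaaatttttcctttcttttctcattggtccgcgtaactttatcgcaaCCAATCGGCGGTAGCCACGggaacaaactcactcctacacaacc
Hspa5, chr2:34771979-34772088, plus strand: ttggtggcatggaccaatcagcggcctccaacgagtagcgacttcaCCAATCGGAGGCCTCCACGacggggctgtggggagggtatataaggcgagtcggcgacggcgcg
Herpud1, chr8:94386319-94386428, plus strand: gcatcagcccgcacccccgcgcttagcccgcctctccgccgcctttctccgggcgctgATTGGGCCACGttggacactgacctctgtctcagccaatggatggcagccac

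The median probe set of an array read 6.16 to 6.25 in the MEF groups and 5.88 to 6.08 in the hepatocyte groups, and each array correlated with the rest of its group at 0.9973 or more. All 9 measured hepatocyte markers were above the median gene in the hepatocyte groups, by the mean level of each gene's probe set over the cell type. In the MEFs 5 of 10 fibroblast markers were above the median gene of that cell type. The summed level of the 10 (log2) was 14.43 to 14.7 in WT and 12.45 to 12.71 in dKO arrays. Flcn, which encodes folliculin and is known to be induced on AMPK activation, rose with 991 in WT MEFs (0.71, SE 0.07, adjusted p = 2.59e-08, limma) and WT hepatocytes (0.94, SE 0.09, adjusted p = 0.000223), and its change in dKO was -0.08 and 0.04. Prkaa1, which encodes AMPK alpha1, differed by -1.11 between dKO and WT hepatocytes and by -0.09 between MEFs. Prkaa2, for alpha2, differed by -0.10 and -0.32, the latter called (adjusted p = 0.00116, limma). Neither adjusted p for hepatocytes passed 0.05 (0.194 for Prkaa1), and where the probe sets lie relative to the deleted parts is not known, so these values are no check of the MEF genotypes.

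One property of the deposited hepatocyte values bears on every level below. Over all 45037 probe sets, the means of preparation 1 and of preparation 2, each taken over both genotypes, differed by a median of 0.0016 and at most by 0.0448. Within WT the 2 preparations differed by up to 2.28, and within dKO by up to 2.37. The WT and dKO preparation differences are thus mirror images of each other in these values (an adjustment that equalised the numbers 1 and 2 would leave such values). No label or file header records such a step, and the cause was not tested. What can be read is the difference between dKO and WT under 1 preparation number, and the change with a compound inside 1 preparation. Which genotype's preparation stood apart cannot be told.

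In vehicle-treated hepatocytes of preparation 1, ER chaperone genes were lower in dKO than in WT nearly throughout the group, and in preparation 2 most were slightly higher. In preparation 1, 15 of 33 members were lower in dKO by at least 1.5-fold (1.36% of all genes), none was higher by that much (1.75%), and the arrays of the genotypes did not overlap for 30 lower members (11.3% of all genes). The median difference of the members was -0.52, against -0.02 over all genes. In preparation 2, no member was lower (1.06% of all genes) and 2 were higher past 1.5-fold (0.484% of all genes). There the arrays did not overlap for 16 higher members (8.52% of all genes) and 1 lower member, Edem2 (11.9% of all genes), and the median was 0.13, against 0.02. With 1 preparation against 1 these differences have no test, and their array ranges cover technical spread.

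Creld2, which encodes a secretory-pathway cofactor with disulfide isomerase activity and whose promoter holds an ERSE, had the widest difference. Its WT vehicle arrays of preparation 1 read 11.94, 12.21, 12.1, 11.98 and 11.96, and the dKO arrays 9.37, 9.29, 9.42 and 9.27. In preparation 2 the WT arrays read 10.12, 10.19, 10.31, 10.2 and 10.17, and the dKO arrays 10.77, 10.87, 10.67, 10.86 and 10.88. The genotypes did not overlap in either preparation, and their order reversed: dKO minus WT was -2.7 in preparation 1 and 0.61 in preparation 2. Derl3, a derlin of the degradation channel and also an ERSE gene, followed the same order. Its WT arrays read 9.62, 9.72, 9.67, 9.53 and 9.53 in preparation 1 against 7.48, 7.55, 7.52 and 7.5 in dKO, and 7.99, 8.41, 8.25, 7.99 and 7.96 in preparation 2 against 8.58, 8.55, 8.58, 8.49 and 8.53. The differences were -2.1 and 0.42, again without overlap.

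**Figure D1:**
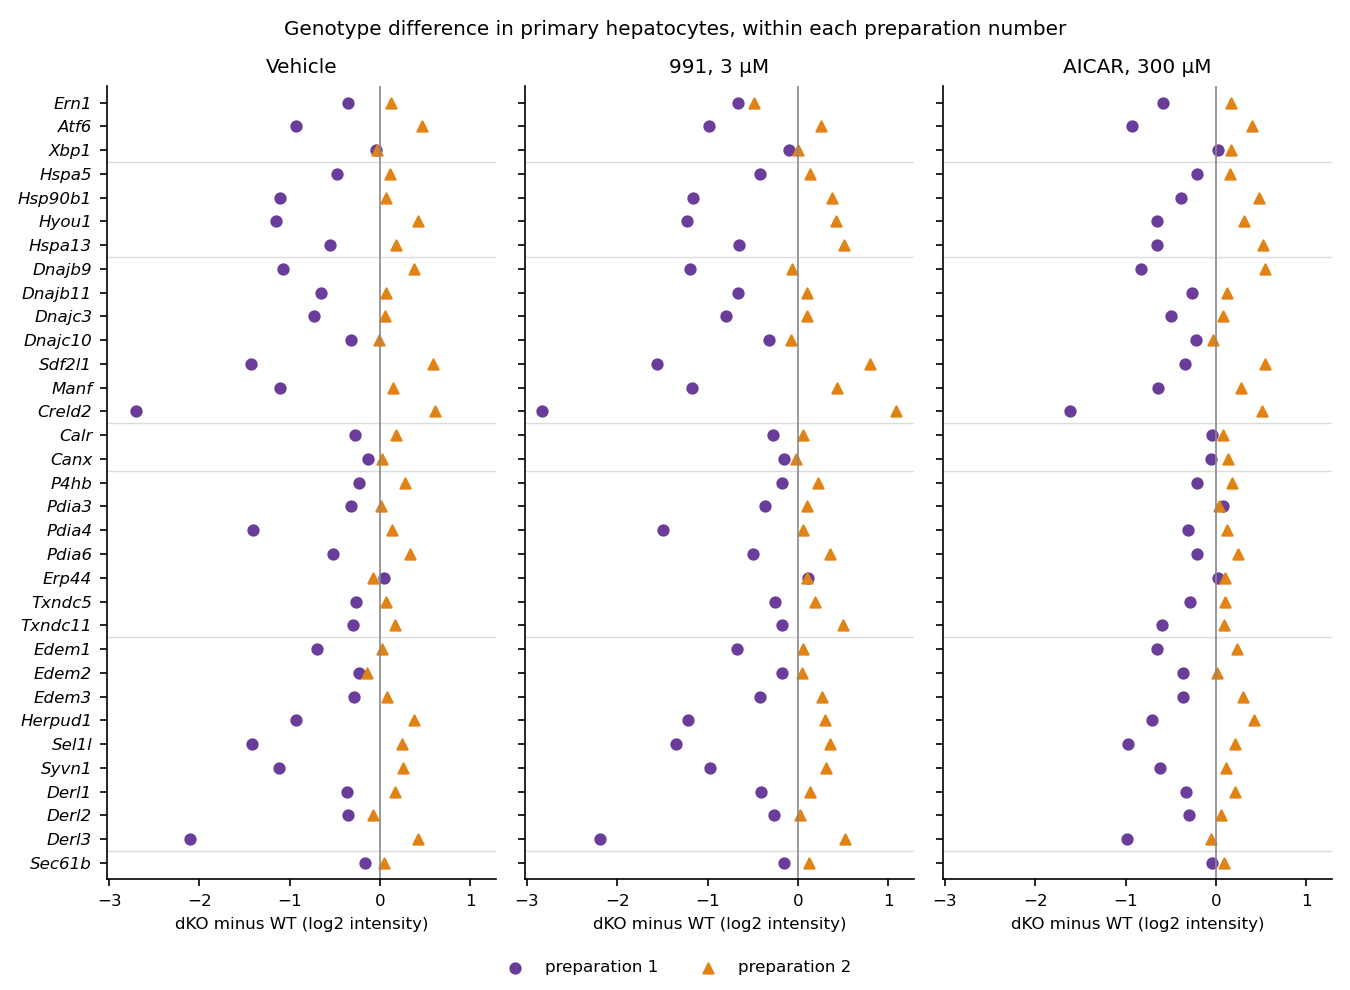
Difference between dKO and WT hepatocytes (x axis, log2 intensity) for each of the 33 genes (y axis, grouped by role and separated by grey lines) with vehicle, 991 or AICAR; circles are preparation 1 and triangles preparation 2, each a difference of means of 4 or 5 arrays. With vehicle, preparation 1 runs from -2.7 (Creld2) to 0.04 (Erp44), and preparation 2 from -0.15 (Edem2) to 0.61 (Creld2).

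Among J proteins and BiP cofactors, 6 of 7 were lower in dKO past 1.5-fold in preparation 1, with a median of -1.07. Sdf2l1, a partner of ER J proteins that helps keep clients soluble, read 10.07, 10.34, 10.33, 10.2 and 10.18 in WT and 8.76, 8.78, 8.89 and 8.74 in dKO, a difference of -1.43. In preparation 2 it was the second member past the fold in the other direction, at 0.59. Manf, which binds BiP and is released under ER stress, differed by -1.11 and 0.14, and Dnajb9, a J protein that steers BiP to IRE1 and to degradation substrates, by -1.07 and 0.38. Dnajc3, a J protein first known as an inhibitor of PERK, differed by -0.73 in preparation 1, and its arrays overlapped in preparation 2 (0.05). Dnajc10, the J protein with reductase domains, was the exception in size, at -0.32 and -0.01.

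Of the HSP70 and HSP90 chaperones, 2 of 4 were lower in dKO past 1.5-fold in preparation 1, with a median of -0.84. Hspa5 itself read 13.89, 13.99, 13.99, 13.9 and 13.94 in WT and 13.47, 13.48, 13.46 and 13.43 in dKO in preparation 1, a difference of -0.48. In preparation 2 the WT arrays lay between 13.61 and 13.66 and the dKO arrays between 13.71 and 13.78, a difference of 0.11. Neither pair of arrays overlapped, but both differences were under 1.5-fold. Hyou1, the exchange factor of BiP, differed by -1.15 and 0.42. Hsp90b1 (GRP94), the HSP90 chaperone of the ER with 2 ERSE copies, differed by -1.11 and 0.06, its arrays overlapping in preparation 2.

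Degradation genes were split. Sel1l, the adaptor of the HRD1 ubiquitin ligase, read 10.91, 11.14, 11.06, 10.91 and 10.91 in WT and 9.45, 9.59, 9.66 and 9.57 in dKO in preparation 1 (-1.42), and differed by 0.24 in preparation 2. Syvn1, the ligase itself, differed by -1.12 and 0.25, and Herpud1, which organises the same complex, by -0.93 and 0.38. These and Derl3 and Edem1 (-0.70 and 0.02) made 5 of 9 past 1.5-fold in preparation 1. Derl1, Derl2, Edem2 and Edem3 differed by -0.37 to -0.23 there. Among 7 protein disulfide isomerases only Pdia4 passed 1.5-fold, reading 10.25, 10.62, 10.46, 10.32 and 10.27 in WT and 9.13, 8.92, 8.89 and 8.95 in dKO (-1.41). The others, including the abundant P4hb and Pdia3, had differences of -0.52 to 0.04. The lectin chaperones Calr (-0.28) and Canx (-0.13) and the translocon subunit Sec61b (-0.17) were below 1.5-fold although Calr and Canx each hold an ERSE.

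The sensors Atf6 and Ern1 differed in the same direction in each preparation, Atf6 by more. Atf6 differed by -0.93 in preparation 1 (WT mean 10.12 ± 0.08 SD, n = 5; dKO 9.19 ± 0.05, n = 4 arrays) and by 0.46 in preparation 2, and Ern1 by -0.36 and 0.12. Total Xbp1 signal was level: WT arrays lay between 12.61 and 12.66 and dKO arrays between 12.56 and 12.64 in preparation 1, a difference of -0.05 with overlap, and the difference was -0.04 in preparation 2. These probe sets were not used to separate spliced from unspliced Xbp1 mRNA.

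Most members also changed order between the preparations under both compounds. With 991, 17 members were lower in dKO past 1.5-fold in preparation 1 (2.18% of all genes), with a median of -0.65, and none was higher (2.19%). In preparation 2 none was lower (1.74%) and Creld2 and Sdf2l1 were higher (0.753%), Creld2 by 1.09. Arrays did not overlap for 30 lower members in preparation 1 (13.4%) and 18 higher members in preparation 2 (8.3%). Ern1 and Dnajc10 were the 2 members lower without overlap in preparation 2 (9.5%), and Ern1 was lower in both preparations (-0.66 and -0.49). With AICAR, 12 were lower in preparation 1 (2.24%), with a median of -0.36, none was higher (1.71%), and 27 were lower without overlap (12.4%). In preparation 2 none was past the fold in either direction (0.704% lower, 0.978% higher), and 22 were higher without overlap (13.3%). The compounds share no arrays with the vehicle groups but come from the same 4 preparations, so these are not further replicates of the genotype difference.

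Cell markers also differed between the cultures. For 10 Kupffer cell and macrophage markers, the median dKO minus WT difference was -0.16 in preparation 1 and -0.7 in preparation 2. In preparation 2, 8 of them were lower past 1.5-fold (1.06% of all genes). Their summed level with vehicle (log2) was 12.27 to 12.42 and 12.77 to 12.87 in the WT preparations and 11.87 to 12.01 and 11.61 to 11.65 in dKO. This sum was thus below WT in both dKO preparations. In preparation 1 only 1 of the 10 was lower past 1.5-fold (1.36% of all genes). There 5 were lower and 3 higher without overlap (2054 and 2975 of 18193 genes), so the sum does not speak for the whole list. The summed level of the fibroblast and stellate cell markers changed order, from 9.72 to 9.82 in WT and 10.2 to 10.25 in dKO in preparation 1 to 10.12 to 10.26 in WT and 9.72 to 9.77 in dKO in preparation 2. That of the 8 endothelial markers changed order as well, from 9.85 to 10.05 in WT and 10.16 to 10.21 in dKO to 10.11 to 10.19 and 9.89 to 9.97. The median difference of the endothelial markers was 0.37 and -0.04, and that of 9 hepatocyte markers 0.02 and 0.04. For the 10 fibroblast and stellate cell markers the median was -0.02 and 0.0. Only 1 of them was past 1.5-fold in each preparation (1.13, then -1.0), so their summed level does not speak for the whole list. In bulk RNA, fewer cells of a type and less RNA per cell cannot be told apart, and the part of other cells in the ER gene differences was not tested.

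With vehicle, 32 of 33 members were lower in dKO in preparation 1 (9880 of 18193 genes), and 28 were higher in preparation 2 (9896 of 18193 genes). Over both preparations the genotype comparison gave no call for any gene (0.0% of 18193 genes, limma on 4 preparation means). In that test 846 genes had an unadjusted p under 0.05, none of them a member. The mirror-image preparation values enter this test directly, so its p-values are not those of independent preparations.

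**Figure D2:**
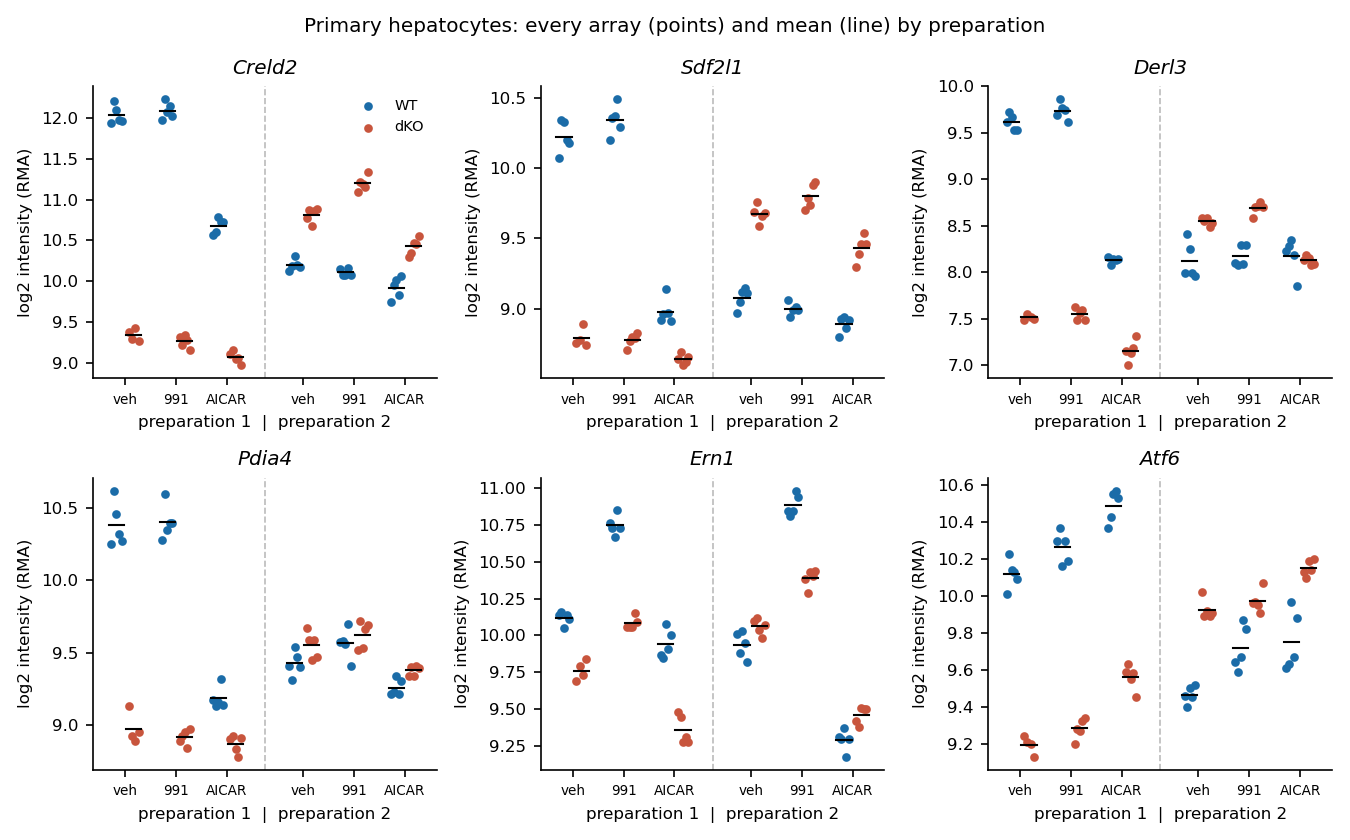
Levels of 6 genes in primary hepatocytes (y axes, log2 intensity) by preparation and treatment (x axes), with each array as a point (blue, WT; red, dKO) and the mean as a line. For Creld2, Sdf2l1 and Derl3 the WT vehicle and 991 arrays of preparation 1 stand highest in the deposited values and the AICAR arrays lie lower; Ern1 stands highest with 991 in WT.

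AICAR lowered a set of these chaperones in WT hepatocytes, and the size of the fall differed between preparations. Of 33 members, 12 fell and 1 rose (16.5% of all genes were called, 7.99% lower and 8.51% higher; limma with preparation as a block, 12 preparation means). The median change was -0.17, against 0.04 over all genes. Those called lower were Creld2, Sdf2l1, Pdia4, Hsp90b1, Manf, Dnajb11, Pdia3, Dnajc10, Dnajc3, Derl1, Hspa5 and Derl2, that is 6 of 7 J proteins and cofactors, 2 of 4 HSP70 and HSP90 chaperones, 2 of 7 isomerases and 2 of 9 degradation genes. All 13 calls rested on WT preparation 1: without it none of them remained, and Ern1 and Xbp1, both lower, were called instead. Sdf2l1 and Pdia3 were also lost with quantile normalization, with no intensity trend and with the mean of all probe sets, and Pdia4 and Atf6 with the mean of all probe sets. Sdf2l1 has only 1 probe set, so that mean left its values unchanged and moved only its p-values.

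Creld2 fell by 0.82 (SE 0.22, adjusted p = 0.028, limma). In WT preparation 1 its AICAR arrays read 10.57, 10.6, 10.78, 10.72 and 10.73, more than 1 unit below the vehicle arrays given above, a change of -1.36. In WT preparation 2 they read 9.74, 9.95, 10.01, 9.83 and 10.06, a change of -0.28. Neither set overlapped its vehicle arrays, and the fall was deeper in preparation 1. Sdf2l1 (-0.72, SE 0.21, adjusted p = 0.0376, limma) fell to 8.92, 8.96, 9.14, 8.97 and 8.91 in WT preparation 1, a change of -1.24, and by -0.19 in preparation 2. Pdia4 (-0.69, SE 0.18, adjusted p = 0.0226) read 9.17, 9.13, 9.16, 9.32 and 9.14 with AICAR in WT preparation 1, a change of -1.2, and changed by -0.17 with overlapping arrays in preparation 2.

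Smaller falls were called for Hsp90b1 (-0.40, SE 0.09, adjusted p = 0.0105), Manf (-0.37, SE 0.09, adjusted p = 0.0133), Dnajb11, the secreted J protein of BiP (-0.33, SE 0.08, adjusted p = 0.0147), and Pdia3, the isomerase of the calnexin cycle (-0.28, SE 0.08, adjusted p = 0.038, all limma). Hspa5 fell by 0.17 (SE 0.04, adjusted p = 0.0072), from 13.89 to 13.99 down to 13.69 to 13.74 in preparation 1 and from 13.61 to 13.66 down to 13.5 to 13.54 in preparation 2. A second Hspa5 probe set changed by -0.34 and the third by -0.04. Derl3 changed by -1.48 in WT preparation 1, where its AICAR arrays read 8.16, 8.08, 8.14, 8.13 and 8.14, and by 0.06 in preparation 2, and it was not called. Sel1l (-0.62 and 0.03), Syvn1 (-0.57 and 0.01) and Hyou1 (-0.41 and 0.07) showed the same contrast between the preparations and were not called either.

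Atf6 went the other way and was the only member called higher: by 0.33 in WT (SE 0.06, adjusted p = 0.00398, limma) and by 0.30 in dKO (SE 0.06, adjusted p = 0.00602). Its WT vehicle arrays of preparation 1 read 10.01, 10.23, 10.14, 10.13 and 10.09, and the AICAR arrays 10.37, 10.43, 10.55, 10.57 and 10.53. The arrays did not overlap in any of the 4 preparations, with changes of 0.37, 0.29, 0.37 and 0.23. In the dKO hepatocytes 3 members fell with AICAR: Ern1 (-0.50, SE 0.13, adjusted p = 0.0215), Dnajc10 (-0.20, SE 0.05, adjusted p = 0.0287) and Derl1 (-0.16, SE 0.05, adjusted p = 0.0336), so 4 of 33 were called (17.8% of all genes, 7.31% lower and 10.5% higher). The Ern1 arrays of dKO preparation 1 went from 9.69, 9.79, 9.73 and 9.84 to 9.48, 9.45, 9.28, 9.31 and 9.28, and those of preparation 2 from 10.1, 10.12, 10.04, 9.98 and 10.07 to 9.42, 9.38, 9.51, 9.5 and 9.5, without overlap. In WT, Ern1 changed by -0.18 in preparation 1 and by -0.65 in preparation 2 and was not called. Without dKO preparation 1 no member was called in dKO with AICAR, and without preparation 2 only Atf6 was. The median change of the members in dKO was -0.04, equal in size but opposite to the 0.04 over all genes.

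**Figure D3:**
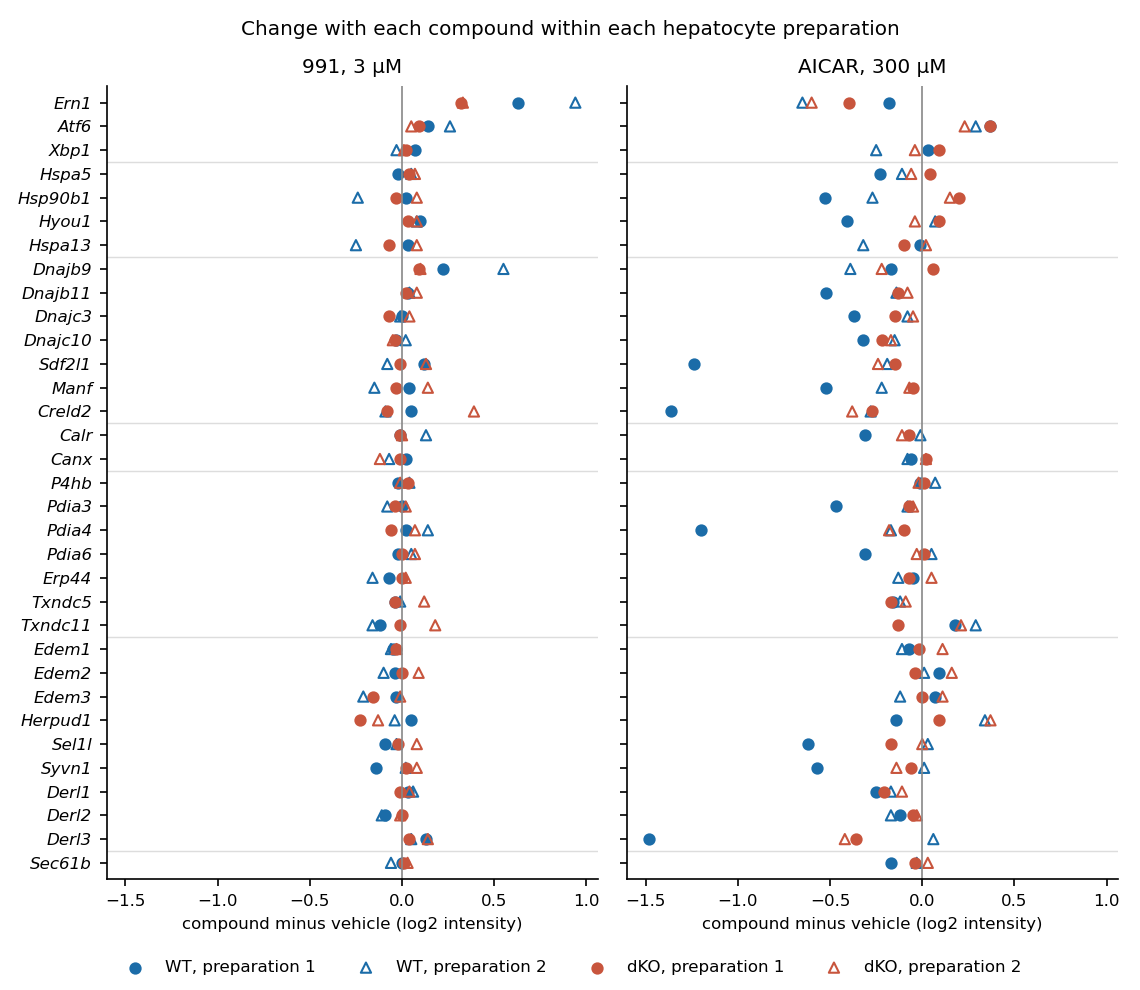
Change with 991 (left) or AICAR (right) against vehicle inside each hepatocyte preparation (x axes, log2 intensity) for the 33 genes (y axis); blue is WT and red dKO, filled circles are preparation 1 and open triangles preparation 2. With AICAR, WT preparation 1 reaches -1.48 for Derl3, -1.36 for Creld2, -1.24 for Sdf2l1 and -1.2 for Pdia4, while the other 3 preparations lie between -0.42 and 0.06 for these 4 genes.

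Read preparation by preparation, 20 members were lower with AICAR without overlap in WT preparation 1 (11.1% of all genes) and 15 in WT preparation 2 (12.5%), against 8 (12.4%) and 9 (9.34%) in the dKO preparations. Higher without overlap were 1 and 2 members in WT (2570 and 2143 of 18193 genes) and 3 and 5 in dKO (2725 and 2797). Herpud1 rose without overlap in preparation 2 of WT (0.34) and dKO (0.37), and its arrays overlapped in preparation 1 (-0.14 and 0.09). Lower past 1.5-fold were 5 in WT preparation 1 (0.83% of all genes): Creld2, Derl3, Sdf2l1, Pdia4 and Sel1l. The other preparations had 1, 0 and 1 (0.803%, 1.38% and 0.863%), in each case Ern1. Without WT preparation 2, 18 members were called with AICAR in WT. The difference between the AICAR effects in WT and dKO was called for none of the members (0.308% of all genes; limma; 3 members at an unadjusted p under 0.05), and for 4 members, all lower in WT, without WT preparation 2. A genotype dependence of the AICAR effect on these genes was therefore not shown by this test, and the widest estimate was -0.57 for Hsp90b1.

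With 991 few of the hepatocyte genes changed. Ern1, the IRE1 sensor, was the 1 member called in WT (6.07% of all genes were called), rising by 0.78 (SE 0.13, adjusted p = 0.00507, limma). Its WT vehicle arrays read 10.14, 10.16, 10.05, 10.14 and 10.11 in preparation 1 and its 991 arrays 10.76, 10.73, 10.67, 10.85 and 10.73, and in preparation 2 they rose from 10.01, 9.88, 10.03, 9.95 and 9.82 to 10.84, 10.81, 10.84, 10.98 and 10.94. The arrays did not overlap in either WT preparation. Of its 5 probe sets, a second was also called (0.47), and the other 3 changed by -0.01 to 0.39. In dKO, Ern1 changed by 0.32 and 0.33 in the preparations, without overlap in either, and was not called, and no member was called (0.0055% of all genes; 1 member at an unadjusted p under 0.05; limma). The WT and dKO effects of 991 did not differ past the threshold for any member (0.412% of all genes; 1 member at an unadjusted p under 0.05). Ern1 had the widest estimate of that difference, 0.46. Dnajb9 changed by 0.39 with 991 in WT and was not called (adjusted p = 0.0507, limma). Read by preparation, 2 members were higher without overlap in WT preparation 1 (Ern1 and Dnajb9, 7.01% of all genes) and none was lower (4.79%). In WT preparation 2 there were 4 higher (Ern1, Dnajb9, Atf6 and Calr, 7.9%) and 1 lower (Manf, 8.73%). In dKO preparation 1, Ern1 was higher and Herpud1 lower without overlap (670 and 557 of 18193 genes). In dKO preparation 2, 5 were higher, by 0.07 to 0.39 (Ern1, Hspa5, Manf, Creld2 and Txndc5), and Canx was lower (378 and 364 of 18193 genes).

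In WT MEFs, 991 raised 10 of 33 members and lowered none (19.7% of all genes were called, 14.0% higher and 5.65% lower; limma on 23 arrays). All changes were small, and the median over the members was 0.02, against -0.00 over all genes. The sensors Ern1 and Atf6 rose, with Dnajb9, Sdf2l1 and Creld2 among the cofactors, Pdia4 and Txndc11 among the isomerases, and Sel1l, Edem1 and Edem2 among the degradation genes. None of the 4 HSP70 and HSP90 chaperones and neither lectin chaperone was called. The compound's doses differ between the cell types, so MEF and hepatocyte values stand side by side without a test.

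Ern1 read 8.17, 8.27, 8.22 and 8.11 with vehicle and 8.52, 8.58 and 8.49 with 991, a rise of 0.33 (SE 0.05, adjusted p = 2.86e-05, limma). The groups did not overlap, but its other 4 probe sets changed by -0.18 to 0.04 and were not called. Atf6 read 8.29, 8.53, 8.38 and 8.43 with vehicle and 8.64, 8.72 and 8.63 with 991, a rise of 0.26 (SE 0.05, adjusted p = 0.000743), and all 3 of its probe sets rose. Dnajb9 read 8.3, 8.11, 8.14 and 8.24 against 8.49, 8.47 and 8.33, a rise of 0.23 (SE 0.06, adjusted p = 0.00879). Txndc11, a thioredoxin-domain protein of the ER membrane, read 7.08, 7.42, 7.37 and 7.3 against 7.76, 7.44 and 7.56, a rise of 0.30 (SE 0.08, adjusted p = 0.0149) with little room between the groups. The other 6 rose by 0.11 (Creld2) to 0.16 (Sel1l). One Hspa5 probe set that was not the representative was lower with 991 (-0.38), while the other 2 changed by 0.02.

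In dKO MEFs, 991 moved 2 members (3.46% of all genes, 1.88% higher and 1.58% lower): Erp44, the isomerase that retrieves escaped ER proteins from the Golgi, rose by 0.21 (SE 0.03, adjusted p = 0.00043, limma), and Dnajb9 fell by 0.21 (SE 0.06, adjusted p = 0.0347). The Dnajb9 call was lost in 7 of 15 alternatives, among them no intensity trend and leaving out any 1 of the 4 dKO vehicle arrays. Dnajb9 read 8.48, 8.44, 8.4 and 8.47 with vehicle and 8.13, 8.1, 8.33 and 8.38 with 991, the opposite of its order in WT. The effect of 991 differed between the genotypes for 4 members (5.28% of all genes, 4.37% higher in WT and 0.912% lower). It was higher in WT for Dnajb9 (0.44, SE 0.08, adjusted p = 0.00141), Atf6 (0.37, SE 0.07, adjusted p = 0.00138) and Ern1 (0.23, SE 0.07, adjusted p = 0.047), and lower for Erp44 (-0.20, SE 0.05, adjusted p = 0.0149). With the mean of all probe sets the genotype difference was -0.04 for Ern1 and -0.02 for Erp44, neither called, so both rested on 1 probe set. The second Erp44 probe set changed by -0.02 in dKO, the mean rise in dKO of 0.09 was not called, and the Erp44 difference was also lost without WT 991 replicate 2. The count of 10 in WT was also unsteady: after quantile normalization 3 were called (Atf6, Ern1 and Txndc11), and with the width of each array's intensity distribution as a covariate 1 (Ern1). It was 4 without WT vehicle replicate 1 or WT 991 replicate 2, 5 without WT vehicle replicate 3 or WT 991 replicate 3, and 6 without WT vehicle replicate 4.

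**Figure D4:**
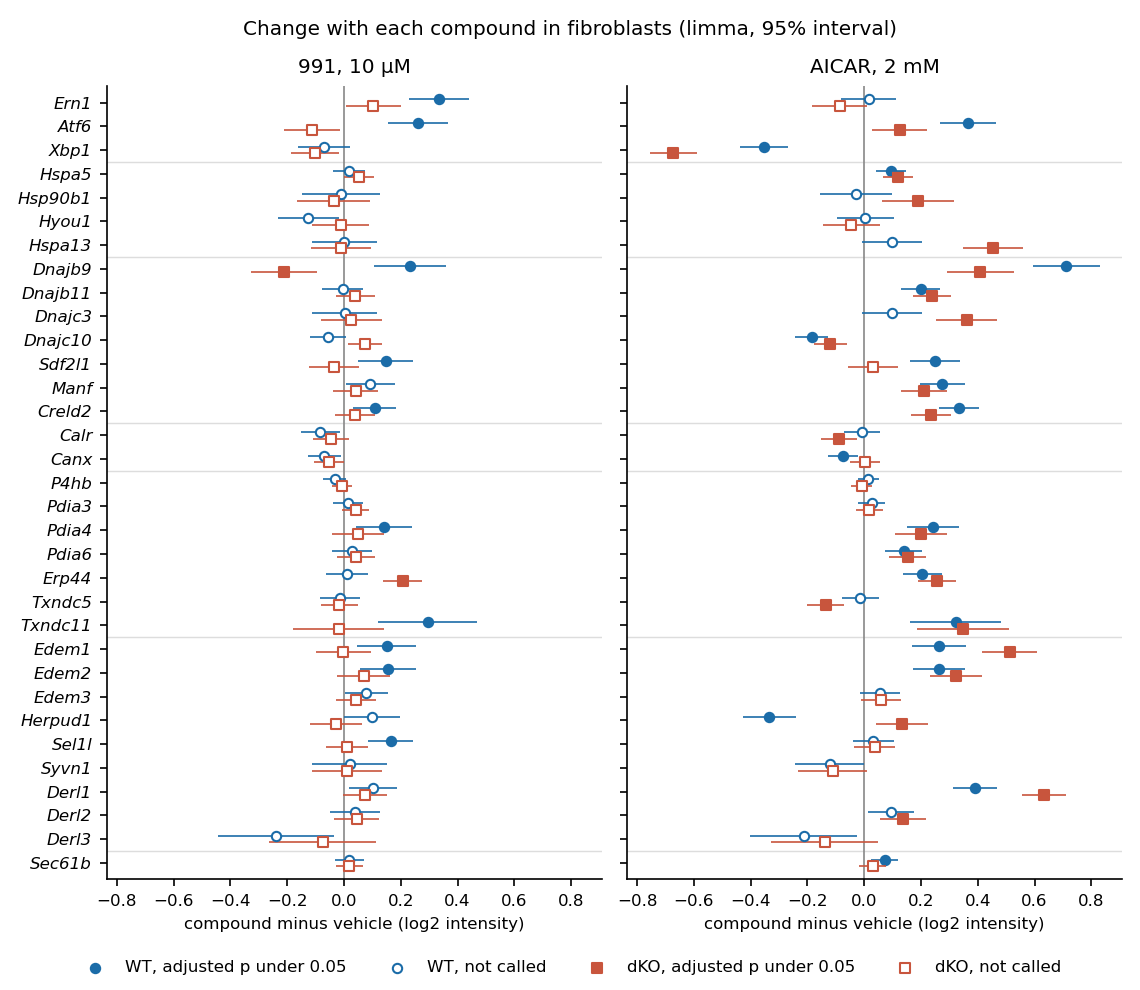
Change with 991 (left) or AICAR (right) against vehicle in MEFs (x axes, log2 intensity) for the 33 genes (y axis, grouped by role), with the 95% interval from limma; blue is WT, red is dKO, and filled symbols have an adjusted p under 0.05. With AICAR, Dnajb9 (0.71) is the highest value in WT, Derl1 (0.63) the highest in dKO, and Xbp1 the lowest in both (-0.35 and -0.67).

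AICAR moved more of the MEF members, and mostly up. In WT, 15 rose and 4 fell (35.0% of all genes were called, 19.6% higher and 15.5% lower), and in dKO 18 rose and 4 fell (40.2%, 20.4% higher and 19.8% lower). The median change was 0.10 in WT and 0.12 in dKO, against -0.01 and -0.02 over all genes, and 15 members were called in the same direction in both genotypes. The effect differed between the genotypes for 9 members (12.1% of all genes, 7.93% higher and 4.18% lower), 4 higher and 5 lower in WT. That count was 6 when each gene was read as the average of its probe sets: Atf6, Derl1, Dnajc3, Edem1 and Hspa13 were lost and Canx and Hspa5 were added. The counts in each genotype are to be read against the 35.0% and 40.2% of all genes, since AICAR at this dose changed a large share of the array.

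Dnajb9 had the largest rise in WT. It read 8.99, 8.87, 8.89 and 8.9 with AICAR, well above the vehicle arrays given above, a change of 0.71 (SE 0.06, adjusted p = 1.06e-11, limma), and in dKO it read 8.92, 8.81, 8.89 and 8.79, a change of 0.41 (SE 0.06, adjusted p = 4.72e-07). The rise was larger in WT by 0.30 (SE 0.08, adjusted p = 0.0113), and the AICAR levels of the genotypes overlapped because dKO started higher. Derl1, a derlin of the retrotranslocation channel, rose from 11.08, 11.09, 11.06 and 11.12 to 11.56, 11.42, 11.46 and 11.47 in WT (0.39, SE 0.04, adjusted p = 6.24e-10). In dKO it rose from 11.22, 11.17, 11.26 and 11.28 to 11.89, 11.85, 11.86 and 11.86 (0.63, SE 0.04, adjusted p = 5.35e-15), a difference of -0.24 for WT minus dKO (SE 0.05, adjusted p = 0.00212). All 4 of its probe sets rose in both genotypes, but 2 rose by slightly more in WT (0.22 against 0.17, and 0.36 against 0.32), and the mean of the 4 gave a difference of -0.11 that was not called.

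Creld2 (0.33 and 0.24 in WT and dKO), Manf (0.28 and 0.21), Dnajb11 (0.20 and 0.24), Pdia4 (0.24 and 0.20), Txndc11 (0.32 and 0.35) and Edem2 (0.26 and 0.32) rose in both genotypes, and for none of them did the difference between genotypes pass the threshold. With the mean of all probe sets the dKO rises of Txndc11 and Edem2 were not called. The second Txndc11 probe set read 5.15 with AICAR and 5.12 with vehicle in WT, and 5.02 and 5.05 in dKO. That of Edem2 read 4.53 and 4.64 in WT, and 4.63 and 4.72 in dKO. Hspa5 rose by 0.10 and 0.12. Sdf2l1 rose by 0.25 in WT and changed by 0.03 in dKO, a difference of 0.22 (SE 0.06, adjusted p = 0.0163, limma). Atf6 rose by 0.37 in WT and 0.12 in dKO, a difference of 0.24 (SE 0.07, adjusted p = 0.0168). Its other probe sets rose by 0.26 and 0.33 in WT and by 0.24 and 0.43 in dKO, and their mean with the first gave a difference of 0.06 that was not called. Edem1, a lectin-like factor that extracts misfolded glycoproteins, went the other way, with rises of 0.26 and 0.51 (difference -0.25, SE 0.07, adjusted p = 0.0115). Its second probe set changed by 0.07 in WT and 0.10 in dKO, neither called, and with the mean of both the difference was not called.

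Herpud1, a membrane protein of the degradation complex whose promoter holds the ERSE-II shown, responded differently to AICAR in the MEF genotypes. In WT it fell from 9.63, 9.72, 9.66 and 9.74 to 9.39, 9.39, 9.33 and 9.31 (-0.33, SE 0.05, adjusted p = 3.84e-07, limma). In dKO it went from 10.12, 10.05, 10.1 and 9.95 to 10.08, 10.29, 10.15 and 10.24 (0.13, SE 0.05, adjusted p = 0.0186), with overlap. The dKO call was lost with quantile normalization (0.04) and without dKO AICAR replicate 2 or 4 or dKO vehicle replicate 4. The difference of -0.47 (SE 0.06, adjusted p = 4.07e-06) was the widest among the members, and its second probe set gave -0.52. The representative probe set of Hspa13, a small HSP70 of the ER, rose in dKO from 10.35, 10.36, 10.36 and 10.28 to 10.89, 10.8, 10.84 and 10.64 (0.45, SE 0.05, adjusted p = 1.11e-08), with 0.10 in WT, not called, and a difference of -0.35 (SE 0.07, adjusted p = 0.00106). Its other 3 probe sets rose in WT as well, by 0.28, 0.18 and 0.40 (0.37, 0.26 and 0.43 in dKO), and the mean of the 4 gave a difference of -0.14 that was not called. The representative Dnajc3 probe set rose by 0.36 in dKO (SE 0.05, adjusted p = 8.66e-07) and changed by 0.10 in WT (difference -0.26, SE 0.07, adjusted p = 0.0165). Its other 4 probe sets rose by 0.23 to 0.37 in WT, and the difference was lost with the mean of all 5 (-0.11) and with no intensity trend.

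Xbp1 fell with AICAR in MEFs of both genotypes. Its arrays read 11.19, 11.04, 11.04 and 11.12 with vehicle and 10.8, 10.74, 10.76 and 10.67 with AICAR in WT (-0.35, SE 0.04, adjusted p = 2.71e-08, limma). In dKO they read 11.13, 11.12, 11.04 and 11.19 with vehicle and 10.4, 10.53, 10.34 and 10.53 with AICAR (-0.67, SE 0.04, adjusted p = 1.01e-14). The genotypes overlapped with vehicle, and the fall was deeper in dKO, by 0.32 (SE 0.06, adjusted p = 0.000254). All 4 Xbp1 probe sets fell in dKO. The other members called lower were Dnajc10 in both genotypes (-0.19 and -0.12), Canx in WT (-0.07), and Txndc5 (-0.14) and Calr (-0.09) in dKO.

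**Figure D5:**
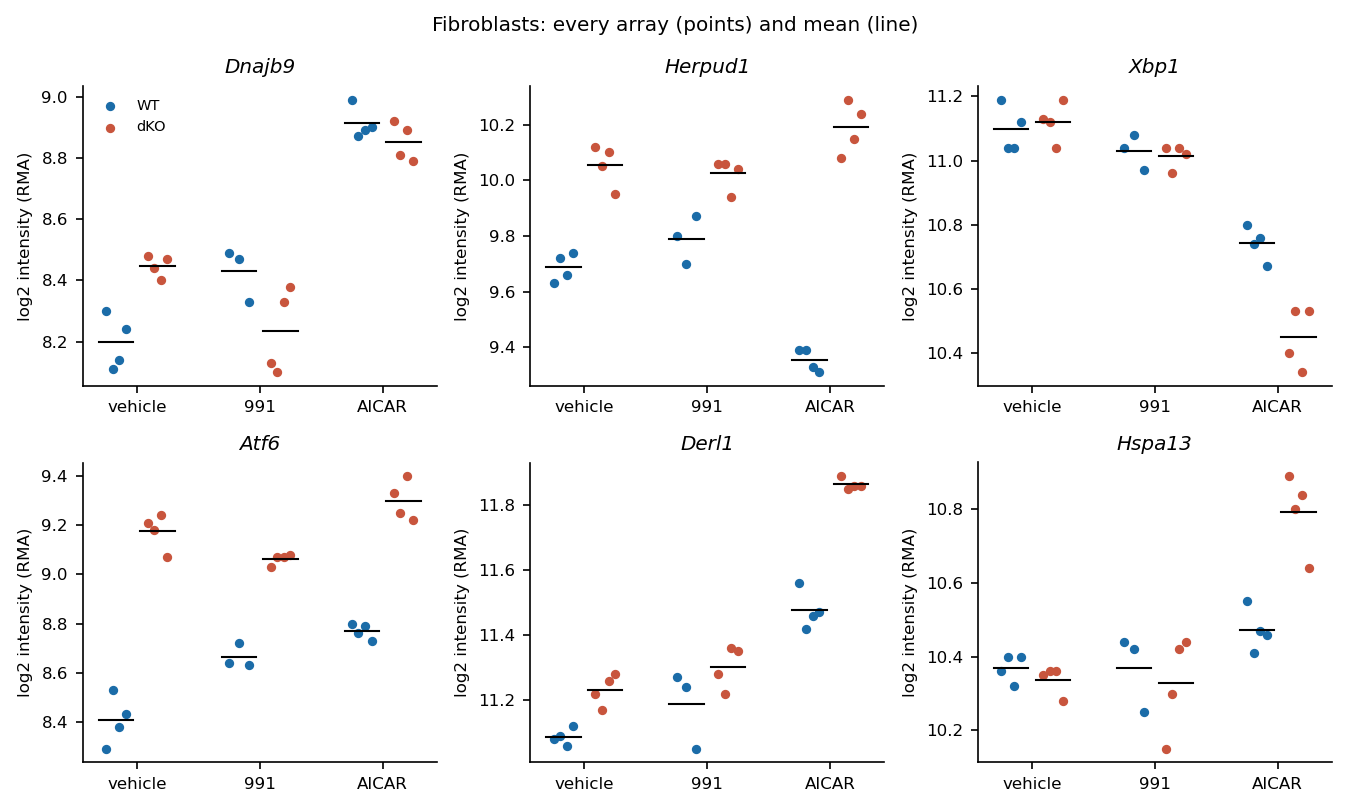
Levels of 6 genes in MEFs (y axes, log2 intensity) by treatment (x axes), with each array as a point (blue, WT; red, dKO) and the group mean as a line. Herpud1 falls with AICAR in WT (mean 9.36 against 9.69) and its dKO arrays overlap (10.19 against 10.06), and Xbp1 falls in both.

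Side by side, the AICAR response of several chaperones had opposite signs in the 2 cell types, which received different doses. Creld2 rose by 0.33 in WT MEFs and fell by 0.82 in WT hepatocytes, Sdf2l1 changed by 0.25 and -0.72, Pdia4 by 0.24 and -0.69, Manf by 0.28 and -0.37, and Dnajb11 by 0.20 and -0.33. Atf6 rose in both (0.37 and 0.33). Levels also differed by cell type. Derl3 group means were 6.00 to 6.27 in MEFs, near the array median, against 7.15 to 9.74 in hepatocyte preparations. Creld2 stood between 10.52 and 11.14 in MEF groups, inside the 9.07 to 12.09 spanned by hepatocyte preparations.

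The MEF genotypes differed with vehicle for 20 members, 12 higher and 8 lower in dKO, against 47.3% of all genes (28.0% higher and 19.2% lower), with a median of -0.01 (-0.00 over all genes). Atf6 was higher by 0.77 (SE 0.05, adjusted p = 5.4e-15, limma), reading 9.21, 9.18, 9.24 and 9.07 in dKO, above all WT vehicle arrays. Edem2 (0.63), Sdf2l1 (0.49), Syvn1 (0.43), Edem3 (0.43), Ern1 (0.40) and Creld2 (0.39) were higher as well. Dnajc3 was lower by -0.66 (SE 0.05, adjusted p = 1.88e-12), reading 9.98, 9.95, 9.94 and 9.91 in dKO and 10.68, 10.56, 10.52 and 10.64 in WT, with all 5 probe sets called. Txndc5 (-0.51), Pdia6 (-0.47), Edem1 (-0.35) and Hsp90b1 (-0.33) were lower. The other Ern1 probe sets read 6.84, 4.34, 6.51 and 4.76 in dKO and 6.93, 4.37, 6.28 and 4.67 in WT. The other Edem1 probe set was level, at 9.05 in dKO and 9.07 in WT. By role, the sensors Atf6 and Ern1 were higher, and the transcription factor Xbp1 was not called (0.02). Of the HSP70 and HSP90 chaperones 2 of 4 were lower. Of the J proteins and cofactors 4 of 7 were higher and 1 lower. Among the isomerases 1 of 7 was higher and 3 lower, and among the degradation genes 5 of 9 were higher and 2 lower. The fibroblast markers' summed level was also lower in dKO, and its part in these differences was not tested.

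The wider pathway was followed through 102 other measured genes in 8 lists. Of 10 PERK branch genes, 7 rose with 991 in WT MEFs (19.7% of all genes were called, 14.0% higher) and 6 in WT hepatocytes (6.07%), with none lower and none called in dKO. Ddit3, which encodes CHOP, rose by 0.79 (SE 0.06, adjusted p = 2.1e-11, limma) in WT MEFs and by 1.28 (SE 0.29, adjusted p = 0.0246) in WT hepatocytes, and the stress factor Atf3 by 0.42 and 1.43. In MEFs the 991 effect on Ddit3 was larger in WT than in dKO by 0.73 (SE 0.08, adjusted p = 3.47e-07). With AICAR the same list split: Chac1, a glutathione-degrading enzyme driven by ATF4, fell by 2.56 in WT and 2.88 in dKO MEFs, and Trib3, a pseudokinase induced by ATF4 and CHOP, fell by 1.33 in WT. Ddit3 changed by -1.004 in dKO MEFs, by -1.46 in WT hepatocytes and by -2.33 in dKO hepatocytes, all called. In hepatocytes Ppp1r15a (GADD34) rose by 0.92 in WT and Atf3 by 1.26 in dKO. The counts with AICAR were 3 higher and 5 lower in WT MEFs, 4 and 4 in dKO MEFs, 2 and 3 in WT hepatocytes and 3 and 3 in dKO hepatocytes, against 35.0%, 40.2%, 16.5% and 17.8% of all genes called. In vehicle-treated hepatocytes of preparation 1, 5 of 10 PERK branch genes were also lower in dKO past 1.5-fold (1.36% of all genes), with a median of -0.59. There 8 were lower and 2 higher without overlap (2054 and 2975 of 18193 genes). In preparation 2 none was lower past 1.5-fold (1.06%) and 1 was higher (0.484%). The median there was 0.16, and 5 were higher without overlap (8.52%).

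Of the other lists, the ER to Golgi transport genes rose with AICAR in MEFs in 10 of 14 (WT) and 7 of 14 (dKO) with none lower (19.6% and 20.4% of all genes rose), among them Sar1a, the GTPase of the COPII coat (0.29 in WT), and Tmed10, a cargo receptor (0.42 in dKO). Companion degradation genes rose in 9 and 11 of 14, with Selenok at 0.40 and 0.38, and 1 fell in each genotype (15.5% and 19.8% of all genes fell), Faf2, a recruiter of the p97 segregase (-0.51 and -0.42). In WT hepatocytes AICAR lowered 10 of 20 translocation and signal peptide genes (7.99% of all genes) and raised none, Ssr2, a subunit of the translocon-associated complex, by -0.46 (SE 0.05, adjusted p = 0.000135, limma). In the list of ATF6 and CREB3 relatives, Crebrf, which encodes a regulator of the CREB3 family, rose with 991 by 1.09 (SE 0.07, adjusted p = 1.35e-12) in WT MEFs and by 0.43 (SE 0.11, adjusted p = 0.0417) in WT hepatocytes, and Creb3l3, the liver-enriched relative, rose by 0.54 in WT hepatocytes (SE 0.05, adjusted p = 0.000285). Between vehicle-treated MEF genotypes, Lman1, a cargo lectin (-1.12), and the isomerase Pdia5 (-0.78) were lower in dKO.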

How the data were processed

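The arrays were deposited by the authors as log2 intensities, 1 column per array, and per the submitters' processing notes RMA and Partek were used (versions not given there). RMA is a background correction, quantile normalization and probe summary; a joint or separate run of the 2 cell types is not stated in those notes. Of 45101 probe sets, 64 controls were left out; 34945 of the rest had 1 gene symbol in GEO's platform annotation, 932 had several and 9160 none, and 34741 were updated by Entrez ID. Each gene was represented by its brightest probe set, by mean over a cell type, and 3 members (Dnajc3, Syvn1 and Derl1) used different probe sets in the 2 cell types.

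limma 3.58.1 (R 4.3.3) with an intensity trend was run on all 18193 genes. In MEFs 6 group means were estimated from 23 arrays. In hepatocytes the technical replicates were averaged to 12 preparation means, with preparation within genotype as a block, and vehicle genotypes were compared on 4 preparation means. Calls were an adjusted p under 0.05 (Benjamini-Hochberg over all genes), with no fold limit; SE is the standard error and SD the standard deviation between arrays. Differences within 1 preparation are given with a fold of 1.5 and with whether arrays overlap. Precision is limited by 2 preparations per genotype.

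Replicate numbers were checked for pairing: deviations from group means correlated with a median of 0.584 within a hepatocyte preparation (0.502 to 0.845, 12 pairs), -0.74 between genotypes of the same preparation number, and 0.016 for MEF arrays of the same number (-0.377 to 0.381), so the labels' preparations were used as the block and MEF numbers were not. On simulated data (991 in WT, 18193 genes, 50 genes per size), changes of 0.3, 0.6, 1.0 and 2.0 were called in 56.0%, 98.0%, 100.0% and 100.0% of MEF cases and 44.0%, 84.0%, 96.0% and 100.0% of hepatocyte cases.

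Every member could be named; statistics in full were given for the 8 most changed called members of a comparison, and for up to 2 called genes of each companion list, besides Flcn, Prkaa1 and Prkaa2 as checks. The members and lists were chosen with earlier results of these data known. Protein sequences were not analysed here. Figures were drawn with Python 3.11.15 and matplotlib 3.10.9.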

Additional observations from a re-analysis of the deposited data

Results flagged for a closer look

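In the 5 MEF groups with 4 arrays, 165 sets of member values were examined for an array far from the others, and 8 stood out. Chance gives about 1 in 20. The sets share arrays and are not independent, and WT vehicle replicate 2 and dKO 991 replicate 3 each stood out for more than 1 member. Hepatocyte arrays, which are technical replicates of 2 preparations, were not examined in this way. Calr read 12.97 in WT vehicle replicate 2 (the others 12.81 to 12.82) and 12.82 in dKO AICAR replicate 3 (12.72 to 12.74). Edem1 read 9.65 in WT vehicle replicate 2 (9.46 to 9.49), and Txndc5 read 11.18 in WT AICAR replicate 1 (11.25 to 11.26). Hspa13 read 10.28 in dKO vehicle replicate 4 (10.35 to 10.36), and Sec61b read 12.9 in dKO vehicle replicate 3 (12.87 to 12.88). With 991 in dKO, replicate 3 stood apart for Herpud1, at 9.94 (10.04 to 10.06), and for Sel1l, at 9.47 (9.33 to 9.35).

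The AICAR changes of 7 members in WT and 1 in dKO were called in opposite directions in MEFs and hepatocytes. The gap, MEF minus hepatocyte on the log2 scale, was 1.15 for Creld2, 0.97 for Sdf2l1, 0.93 for Pdia4, 0.65 for Manf, 0.60 for Derl1, 0.53 for Dnajb11 and 0.27 for Hspa5 in WT, and 0.79 for Derl1 in dKO. These differences were not tested, and the doses differed between the cell types. For Derl1 the gaps also set different probe sets side by side. Its MEF probe set read 9.76 with AICAR and 9.78 with vehicle in dKO hepatocytes. The Derl1 call in dKO hepatocytes was lost in 5 of 9 alternatives, among them the mean of all probe sets and leaving out either dKO preparation.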

How the results depend on the processing

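Counts below are of members called with limma, with the count of the report in parentheses where it moved. Averaging the probe sets of each gene, the 991 counts were 2 for the genotype difference in MEFs (4), 1 in dKO MEFs (2) and 2 in WT hepatocytes (1), and the Ern1 genotype difference in MEFs turned to -0.04. The same averaging gave 6 for the AICAR genotype difference in MEFs (9), with Atf6, Derl1, Dnajc3, Edem1 and Hspa13 lost, and 8 for 991 in WT MEFs (10). In WT MEFs with 991 (10), quantile normalization left 3 and the width of each array's distribution as a covariate left 1. Without the intensity trend, 991 in dKO MEFs gave 1 (2) and AICAR in WT hepatocytes 8 (13). With each hepatocyte array counted as a sample, which treats technical replicates as independent, 991 gave 7 in WT (1), 2 in dKO (0) and 5 for their difference (0), AICAR gave 28 (13), 12 (4) and 13 (0), and the vehicle genotypes gave 11 (0). With no replicate block, meaning no preparation term, 991 in WT, AICAR in WT and AICAR in dKO hepatocytes each gave 0. A crossed replicate block, added after seeing the data, which pairs WT preparation 1 with dKO preparation 2 and the reverse, gave 18 (0) for the vehicle genotypes; the mirror-image values shrink its residual by construction, and a block on the preparation number itself gave 0. The cause of the other moves was not tested. With a replicate block in MEFs, where numbers do not pair arrays, the counts were 8 for 991 in WT, 2 in dKO and 3 for their difference, 20, 22 and 9 for AICAR, and 20 for the genotypes. Leaving out 1 array or preparation gave, in MEFs, 4 to 13 for 991 in WT, 1 to 2 in dKO, 2 to 7 for their difference, 17 to 21, 19 to 21 and 9 to 11 for AICAR, and 20 to 21 for the genotypes. In hepatocytes it gave 1 to 2, 0 to 0 and 0 to 0 for 991, 2 to 18, 0 to 1 and 0 to 4 for AICAR, and 0 to 0 for the genotypes. The count of the MEF genotype difference with 991 was 2 without WT 991 replicate 2 and 7 without WT vehicle replicate 2. Signal over background was not used here to limit calls.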
